A study of Mus musculus with 8 samples.

Results

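DDX5, a DEAD-box RNA helicase of the nucleus, was mapped by eCLIPseq on 2 long non-coding RNAs (lncRNAs), Malat1 and Neat1, in mouse intestinal epithelial cells (IECs). Their peaks were all those that overlapped the gene body on its own strand by at least 1 base (GENCODE M21, GRCm38). The 2 genes were chosen by their small intestine site counts, the highest of all genes with 54 on Malat1 and 49 on Neat1, so their small intestine values are a description of what selected them. They made up 103 of 1278 peaks in the small intestine list, 59 of 16455 in the colon mAb list and 45 of 9146 in the colon rAb list, or 207 of 26879 peaks in all.

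In eCLIPseq, UV light links a protein to the RNA it touches, the RNA is trimmed by RNase, and the fragments pulled down with the protein (IP) are sequenced beside a size-matched input that skipped the pull-down. The 8 samples were of strain C57BL/6. Small intestine IECs of 8-week-old female wild-type mice gave 2 CLIP and 2 input samples, reported as 1 list of peaks found in both replicates. Colonic IECs gave 1 CLIP and 1 input sample for each of the antibodies named mAb and rAb, and 1 list for each. The labels give the same anti-DDX5 catalogue number for both, and how the antibodies differ is unknown. The genotype label of the colon samples says wild type, as do the study's methods, while their growth protocol names 120-day-old Apcfl/+ CDX2Cre mice, in which an intestinal promoter drives loss of 1 allele of a tumour suppressor. The colon lists are also named as merged over replicates that the labels do not give. The tissue labels were checked on marker genes, with peaks needing both expression and binding. Of 8 small intestine genes 6 held sites in the small intestine list and none had a called peak in either colon list. Of 6 colon genes none was in the small intestine list, which holds sites only. In the colon lists, which hold all called peaks, 5 had called peaks with mAb and 1 with rAb. Sites were on 1 of them with mAb and on 0 with rAb. Of 6 immune genes none had a small intestine site and 1 had called peaks in each colon list.

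Both RNAs stay in the nucleus and are transcribed from neighbouring genes. Malat1 gathers at nuclear speckles, compartments rich in splicing factors, and RNase P cuts a tRNA-like small RNA, mascRNA, from its 3′ end. Neat1 is the scaffold of paraspeckles, which assemble on its long isoform and hold RNA-binding proteins such as NONO and SFPQ. The short isoform ends at an early polyadenylation signal and shares the 5′ end of the long one, which itself ends in a triple helix in place of a poly(A) tail. Malat1 lies at chr19:5795690-5802672 on the minus strand, and its main transcript is 1 exon of 6983 bases. Neat1 lies at chr19:5824708-5845478 on the same strand. Its long isoform is 1 exon of 20771 bases and its short isoform covers bases 3 to 3172. Shorter transcripts are also annotated at 220 to 1798 and at 17467 to 20164. Positions below count bases from the annotated 5′ end. No peak of any list lay over either gene on the opposite strand.

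For each peak, the log2 fold is IP over input reads, each scaled to its library's depth, and the −log10 p comes from the authors' test of the same reads, with a cap of 400. A peak with both values of at least 3 is called a site. The small intestine list held sites only (100% of its peaks), whereas the colon lists held every called peak, and sites were 1.22% of all mAb peaks and 1.99% of all rAb peaks. Tissue, antibody label, library layout and the choice of deposited peaks changed together between the lists, so that values are set side by side and no difference between lists was tested. The total reads of the libraries are unknown, and there is no replicate error for any single peak.

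The bases of the small intestine sites with the highest log2 fold, among those of at least 20 bases, are shown 5′ to 3′ in RNA orientation as DNA letters of the GRCm38 reference. Capitals mark the site and lower case its flanks of 10 bases on each side.
Malat1, 2649 to 2708, chr19:5799965-5800024: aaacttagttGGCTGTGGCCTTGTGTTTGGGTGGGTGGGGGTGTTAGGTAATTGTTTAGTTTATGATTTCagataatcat
Malat1, 885 to 909, chr19:5801764-5801788: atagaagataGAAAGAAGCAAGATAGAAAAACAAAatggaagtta
Malat1, 2086 to 2107, chr19:5800566-5800587: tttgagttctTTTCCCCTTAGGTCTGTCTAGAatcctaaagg
Neat1, 14350 to 14377, chr19:5831102-5831129: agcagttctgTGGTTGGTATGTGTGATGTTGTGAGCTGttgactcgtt
Neat1, 6183 to 6207, chr19:5839272-5839296: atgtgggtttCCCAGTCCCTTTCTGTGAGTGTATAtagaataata
Neat1, 2473 to 2516, chr19:5842963-5843006: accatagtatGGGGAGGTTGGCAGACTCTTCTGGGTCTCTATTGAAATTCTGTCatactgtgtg

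Of the small intestine sites that also overlapped a called peak in both colon lists, the 5 with the highest small intestine log2 fold were the Malat1 site at 2649 to 2708 above and the following 4 on Neat1, with capitals as before.
Neat1, 2081 to 2154, chr19:5843325-5843398: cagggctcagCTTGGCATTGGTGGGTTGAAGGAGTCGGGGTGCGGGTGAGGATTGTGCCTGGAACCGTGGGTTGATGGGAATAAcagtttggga
Neat1, 10970 to 11026, chr19:5834453-5834509: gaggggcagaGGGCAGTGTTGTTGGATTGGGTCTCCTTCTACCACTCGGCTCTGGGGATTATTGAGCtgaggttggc
Neat1, 5201 to 5267, chr19:5840212-5840278: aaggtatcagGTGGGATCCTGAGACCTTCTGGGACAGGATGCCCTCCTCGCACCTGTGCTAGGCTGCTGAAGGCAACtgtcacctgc
Neat1, 3792 to 3858, chr19:5841621-5841687: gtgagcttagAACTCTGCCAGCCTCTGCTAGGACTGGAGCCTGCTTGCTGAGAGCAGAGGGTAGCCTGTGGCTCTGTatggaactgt

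In the small intestine, the sites of Malat1 lay mostly toward its 5′ end. The first 3000 bases held 47 of the 54 sites, 15.7 sites per kb, and the remaining 3983 bases held 7, or 1.76 per kb. Sites covered 26.2% of the first 3000 bases and 5.02% of the rest. Together they covered 987 bases, 14.1% of the transcript. The sites were short, from 3 to 60 bases with a median of 13.5, and many were adjacent pieces of a longer enriched region. When sites within 10 bases of each other were joined, the 54 sites made 17 stretches, and 37 of the 54 fell in only 2 of these. Both of the 2 lie in the first 3000 bases, so the sites per kb there count many pieces of the same region.

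The first of these 2 stretches, at 701 to 909, held 18 sites and the highest log2 fold of the transcript. Its log2 fold was 4.39 at 701 to 732, 4.34 at 780 to 785, 5.28 at 819 to 821, 6.27 at 835 to 839 and 5.50 at 885 to 909. The fold thus climbed to 1 summit and stayed above 5 to the end of the stretch. Of the 18 sites, 11 were at the cap of −log10 p. The stretch is rich in A and G and its whole sequence is shown, with capitals on the 5 bases of highest fold, a choice made after its values were seen.
Malat1, 701 to 909, chr19:5801764-5801972: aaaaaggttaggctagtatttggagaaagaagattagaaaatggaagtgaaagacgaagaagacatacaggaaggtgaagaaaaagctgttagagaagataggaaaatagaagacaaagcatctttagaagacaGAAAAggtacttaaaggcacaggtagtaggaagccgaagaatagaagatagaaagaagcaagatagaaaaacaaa

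The other long stretch, at 1315 to 1660, was wider and flatter. Its 19 sites over 346 bases had log2 folds from 3.10 to 3.64, near the cutoff throughout, although most were at the cap of −log10 p. The highest −log10 p below the cap on Malat1, 87.5, was at 1364 to 1381. Outside the 2 long stretches, the highest folds were 5.52 at 2649 to 2708, 5.05 at 2086 to 2107, 4.56 at 6459 to 6466 and 4.53 at 4923 to 4948. The 5 intervals with the highest log2 folds of Malat1, 6.27, 5.83, 5.82, 5.79 and 5.57, were all neighbours between 822 and 866. The longest part between sites without any was from 3758 to 4922. The last site ended at 6466, 517 bases before the annotated 3′ end of the gene, which lies beyond mascRNA. No peak of any list reached mascRNA, at 6692 to 6749 in the RefSeq annotation of the same build.

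**Figure D1:**
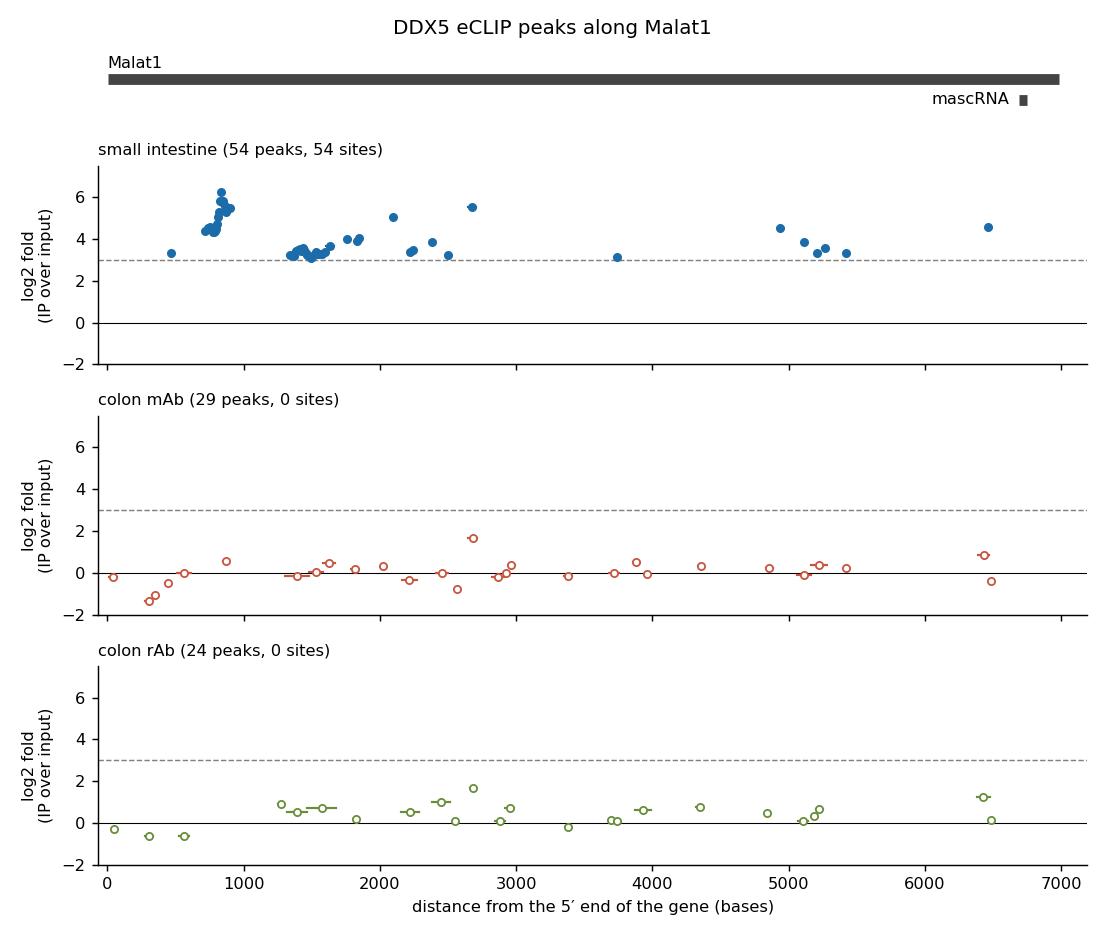
Log2 fold of IP over input (vertical axis) of every peak on Malat1 by distance from the 5′ end in bases (horizontal axis) for the 3 lists. Filled points are sites, open points are other called peaks, horizontal bars span each peak and the dashed line is the cutoff of 3. The 54 small intestine sites cluster in the first 3000 bases, and none of the 29 mAb or 24 rAb peaks reaches the cutoff.

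On Neat1, the small intestine sites were single intervals spread along the RNA, with 40 of 44 joined stretches made of 1 site. Their median width was 38 bases, from 1 to 77. They covered 1936 bases, 9.32% of the long isoform. Bases 1 to 8500, which are 40.9% of the length, held 43 of the 49 sites. This bound was not among the planned ones and falls between a site ending at 8400 and the next starting at 10970. Densities on its 2 sides thus depend on a cut placed where sites end. The region of the short isoform held 22 of them, or 44.9% (exact 95% interval 30.7 to 59.8, counting error only), at 6.94 sites per kb. The part of the long isoform beyond it held 27, or 1.53 per kb, with 3.94 per kb up to base 8500 and 0.489 per kb after it. Reads in the first 3172 bases can come from either isoform, and the lists cannot tell them apart, whereas the other 27 sites lie beyond the short isoform. Those at 18968 to 18998 and 19324 to 19391 also lie within the annotated transcript at 17467 to 20164.

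The 2 scores of the Neat1 sites ran in different ways along the RNA. In the region of the short isoform, the −log10 p was between 26.8 and 400 with a median of 67.2, and 10 of 22 sites were at the cap. Beyond the short isoform it was between 9.92 and 38.4 with a median of 21.5, and no site was at the cap. The log2 folds had medians of 4.79, from 3.14 to 6.44, and 5.28, from 4.35 to 6.88, in the same order. Thus the p-values of the 5′ region were the more extreme while its folds were not higher, and the ranges of both scores overlapped between the regions. The number of reads behind a small intestine peak is not known.

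The lowest fold of Neat1 in the small intestine was 3.14 at 757 to 799 and the highest 6.88 at 14350 to 14377. The 5 highest were 6.88, 6.81 at 11690 to 11691, 6.81 at 11768 to 11775, 6.52 at 6183 to 6207 and 6.44 at 2473 to 2516, so that 3 of the 5 lay beyond base 11000 among only 6 sites after base 8500. The −log10 p of the first 3 of these was 18.1, 10.3 and 9.92. With 10 sites tied at the cap, the next highest −log10 p were 80.0 at 1181 to 1216 and 54.3 at 2978 to 3015. The most densely covered 500 bases were 1501 to 2000, of which 59.8% lay in sites, and 19 of 42 such bins had none. The longest part without a site was from 14378 to 18967, after which 2 sites followed at 18968 to 18998 and 19324 to 19391. Of the 49 sites, the authors' table names Neat1 alone for 46 and adds a small annotated RNA within it for 3.

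**Figure D2:**
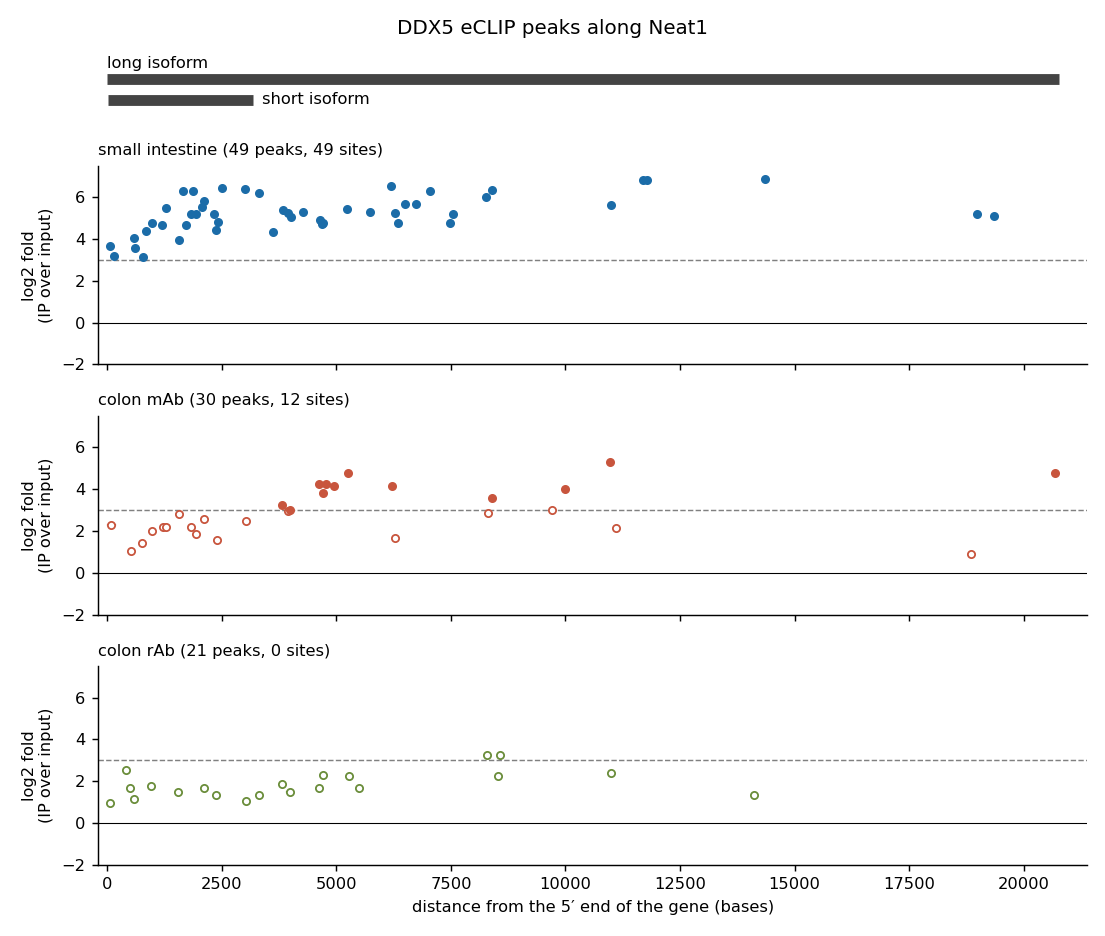
Log2 fold of IP over input (vertical axis) of every peak on Neat1 by distance from the 5′ end in bases (horizontal axis) for the 3 lists, under bars for the long and short isoforms. Filled points are sites, open points other called peaks, and the dashed line is the cutoff of 3. All 12 mAb sites lie beyond the short isoform, between 3778 and 20733, while the 49 small intestine sites begin at base 27.

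**Figure D3:**
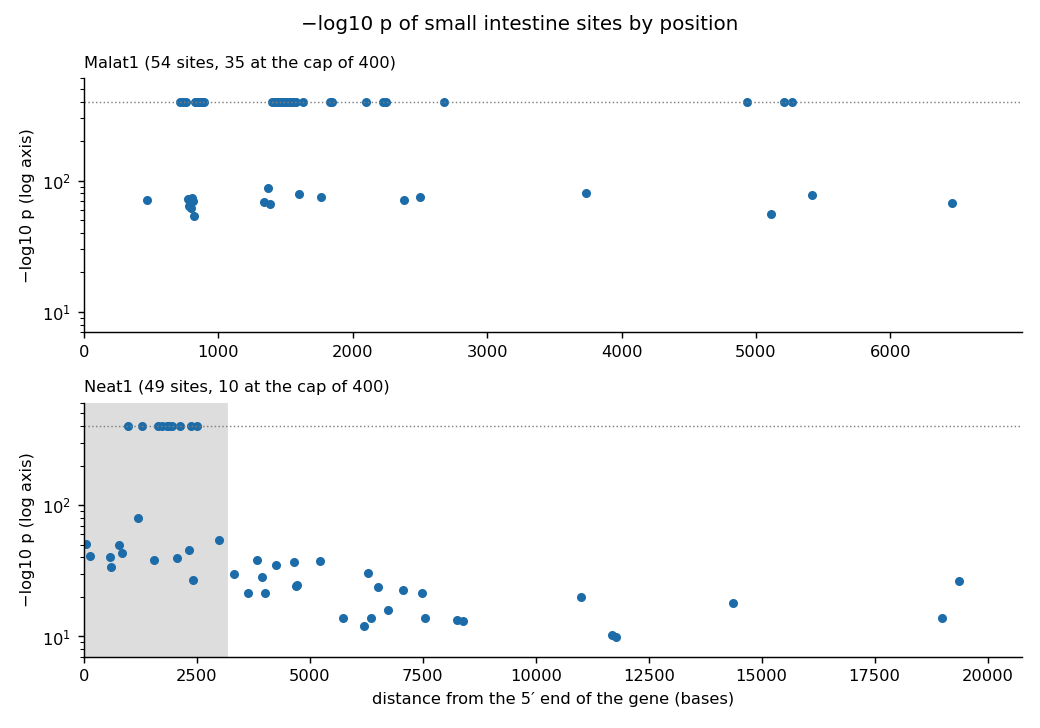
The −log10 p (vertical log axis) of the small intestine sites by distance from the 5′ end in bases, for Malat1 (54 sites) and Neat1 (49 sites). The dotted line is the cap of 400 and the grey band the short isoform of Neat1, which holds all 10 Neat1 sites at the cap.

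The fold and p of the 2 RNAs also differed from each other within the small intestine list, whose median log2 fold was 4.29 over 1278 sites. The median was 3.75 on Malat1 and 5.21 on Neat1. Of the 93 sites at the cap in the list, 45 were on these 2 RNAs, 35 on Malat1 and 10 on Neat1. The values of Malat1 just inside the cutoff on log2 fold were 3.10 at 1493 to 1498 and 3.14 at 3718 to 3757, and those of Neat1 3.14 and 3.20 at 108 to 174. No peak outside the cutoff was in this list.

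In the colon, where sites were 1.22% of all mAb peaks and 1.99% of all rAb peaks, Malat1 had many called peaks and no site. With mAb, its 29 peaks covered 26.6% of the transcript, with log2 folds from −1.33 to 1.68 and a median of 0.00, against a median of 1.15 over all mAb peaks. Of the 29, 15 had a fold above 0, as did 83.9% of all mAb peaks. With rAb, its 24 peaks covered 24.2%, with folds from −0.63 to 1.65 and a median of 0.40, against 2.24 over all rAb peaks. Of the 24, 20 had a fold above 0, as did 92.1% of all rAb peaks. The exact 95% intervals of a count of 0 sites among 29 and 24 peaks reach 11.9% and 14.2%, above the shares over all peaks. They cover counting error only, since peaks of 1 RNA share their libraries and are not independent. Malat1 peaks whose reads could be traced (below) had a median of 96 IP reads with mAb and 62 with rAb. Over all traced peaks the median was 3 in either list, so that shares and folds are set against shallower peaks. At a looser log2 fold of at least 1, with −log10 p still at least 3, Malat1 had 1 peak with mAb and 3 with rAb, where this looser rule called 2.55% of all mAb peaks and 4.46% of all rAb peaks.

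The same piece of Malat1 led both colon lists. With mAb it was the peak at 2648 to 2712, whose log2 fold was 1.68 at a −log10 p of 13.1. With rAb it was the peak at 2658 to 2707, whose fold was 1.65 at a −log10 p of 8.37. Both lie on the small intestine site at 2649 to 2708, whose fold was 5.52, and whose bases are the first shown above. The second highest peak with mAb was at 6388 to 6473, with a fold of 0.87, and rAb had a fold of 1.23 and its highest −log10 p on this RNA, 11.2, at 6383 to 6476. Over these the small intestine had a site of 8 bases at 6459 to 6466 with a fold of 4.56.

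The leading small intestine stretch of Malat1, at 701 to 909, stood differently in the colon. With mAb, 1 peak at 850 to 893 touched 5 of its 18 sites, and its log2 fold was 0.56 at a −log10 p of 1.56. With rAb no peak was called there. The flatter stretch at 1315 to 1660 was covered in both colon lists, by mAb peaks at 1305 to 1477, 1478 to 1583 and 1584 to 1670 with folds of −0.15, 0.04 and 0.46, and by rAb peaks at 1318 to 1462 and 1463 to 1680 with folds of 0.52 and 0.71. The widest Malat1 peak of each colon list thus lay on this stretch, at folds near 0 with mAb.

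On Neat1, mAb and rAb gave different pictures in the colon. With mAb, all 30 peaks had a log2 fold above 0, the median was 2.86 and 12 of the 30 were sites (exact 95% interval of the share 22.7% to 59.4%) against 1.22% of all mAb peaks. The 30 peaks had a median of 42 IP reads, against 3 over all traced mAb peaks, so that the 2 shares are of peaks of unlike depth. By count, no gene held more mAb sites, and the next held 5. Genes with fewer mAb sites had more of them per kb of exon (below). With rAb, all 21 peaks had a fold above 0 as well, but the median was 1.65, below the 2.24 of all rAb peaks. None of the 21 was a site, against 1.99% of all rAb peaks, with an exact 95% interval that reaches 16.1%. The 21 peaks had a median of 9 IP reads, against 3 over all traced rAb peaks. Both intervals cover counting error only, since peaks of 1 RNA share their libraries and are not independent. At the looser fold of at least 1, with −log10 p still at least 3, the counts were 25 of 30 with mAb and 3 of 21 with rAb. This looser rule called 2.55% of all mAb peaks and 4.46% of all rAb peaks. By the fold alone, 29 mAb peaks and 20 rAb peaks of Neat1 reached 1.

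All 12 mAb sites of Neat1 lay beyond the short isoform, and none of them within the annotated transcript at 17467 to 20164. The 12 mAb peaks in the region of the short isoform had log2 folds from 1.04 to 2.84 with a median of 2.18 and gave no site. The 18 beyond it had folds from 0.92 to 5.32 with a median of 3.70. The log2 folds of the sites, from 5′ to 3′, were 3.25 at 3778 to 3851, 3.001 at 3969 to 4022, 4.25 at 4566 to 4668, 3.84 at 4669 to 4752, 4.24 at 4753 to 4795 and 4.15 at 4935 to 4955. They were 4.79 at 5222 to 5289, 4.15 at 6191 to 6216, 3.56 at 8370 to 8408, 4.02 at 9980 to 9981, 5.32 at 10944 to 11011 and 4.76 at 20645 to 20733. Bases 4501 to 5000 were the most densely covered bin in both colon lists, at 50.2% with mAb and 38.8% with rAb. The mAb peaks just outside the cutoff were at 3928 to 3968, with a fold of 2.97, and at 8297 to 8332, with a fold of 2.89. A further peak, at 9704 to 9714, had a fold of 3.02 but a −log10 p of 2.58.

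The fold and p of a colon peak could be traced back to whole reads. Over the 12 mAb peaks of the short isoform there were 681 IP and 238 input reads, with 6 to 51 input reads a peak. Over the 18 beyond it there were 857 IP and 166 input reads, with 1 to 79 a peak. With the input library 1.48 times as deep as the IP library, these made pooled log2 folds of 2.08 and 2.93. The input of the second group came in good part from 1 peak, at 18800 to 18922, with 101 IP and 79 input reads and a fold of 0.92, and without it the pooled fold was 3.68. This peak lies within the annotated transcript at 17467 to 20164. Without its own peak of most input reads, at 12 to 159, the short isoform had a pooled fold of 2.02. Both removals were chosen after the values were seen, and leaving out the peak of most input at the lowest fold of a group raises its pooled fold by construction. The median input was 20 reads in the short isoform and 3.5 beyond it, whereas the median IP was 42 and 36 reads, and the regions thus lay further apart in input than in IP. An input of 1 read, as at 3 of the 12 sites, cannot be told apart from none, and the folds there are then lower bounds.

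With rAb, the reads on Neat1 were few. The 21 peaks had 3 to 20 IP reads and 1 to 26 input reads, 202 of each in all, with an input library 3.15 times as deep as the IP library. The pooled log2 fold was 1.47 over the 9 peaks of the short isoform and 1.87 over the 12 beyond it. The highest folds, 3.24 at 8279 to 8305 and again at 8562 to 8567, were 3 IP reads over 1 input read, with a −log10 p of 1.34, which kept them from being sites. The highest fold with a −log10 p of at least 3 was 2.55 at 385 to 438, and the highest −log10 p was 5.58, at 4660 to 4769 with a fold of 2.28. On Malat1 the traced rAb peaks had more reads, 29 to 219 in the IP and 49 to 422 in the input, and no site either.

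**Figure D4:**
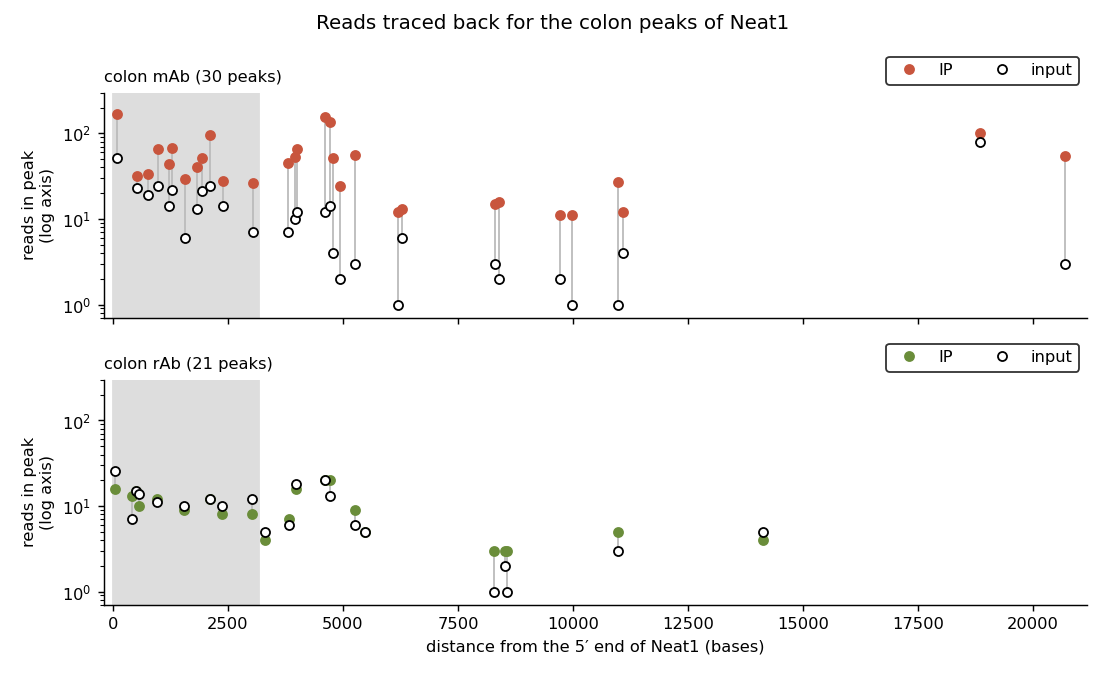
IP reads (filled) and input reads (open) traced back for each colon peak of Neat1 on a log axis, by distance from the 5′ end in bases, for mAb (30 peaks) and rAb (21 peaks). Grey lines join the 2 values of a peak and the grey band is the short isoform. With mAb the input was 6 to 51 reads in the band and 1 to 79 beyond it.

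Overlap of the lists was counted base by base on both RNAs. Of the 54 Malat1 sites of the small intestine, 37 overlapped a called mAb peak, 68.5% (exact 95% interval 54.4 to 80.5), and 31 a called rAb peak, 57.4% (43.2 to 70.8). Among the Malat1 sites with a log2 fold of at least 4, the shares were 34.8% with mAb and 13.0% with rAb. Of these 23 sites, 18 were pieces of the 1 stretch at 701 to 909, where 5 overlapped an mAb peak and no rAb peak was called. Of all 49 Neat1 sites, 23 overlapped a called mAb peak, 46.9% (32.5 to 61.7), and 17 a called rAb peak, 34.7% (21.7 to 49.6). The bases in sites that were shared were 69.5% and 58.9% on Malat1 and 45.4% and 27.0% on Neat1, while colon peaks covered 26.6% and 24.2% of all Malat1 bases and 8.22% and 5.11% of all Neat1 bases. Sites in 1 stretch share their reads, and the intervals cover counting error only. Between the colon lists, 25 of 29 mAb peaks on Malat1 overlapped an rAb peak and 23 of 24 rAb peaks an mAb peak. On Neat1 these were 15 of 30 and 13 of 21.

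A peak in all 3 lists was found at 30 of the 54 Malat1 sites and 12 of the 49 Neat1 sites. On Neat1, the site at 10970 to 11026 had log2 folds of 5.62 in the small intestine, 5.32 with mAb and 2.39 with rAb. The site at 5201 to 5267 had 5.45, 4.79 and 2.24. At 4617 to 4663 the folds were 4.90 in the small intestine and 4.25 with mAb. With rAb, the peak at 4576 to 4659, over most of this site, had 1.65, and that at 4660 to 4769, over its end, had 2.28. In the short isoform, the site at 2081 to 2154 had 5.83, 2.58 and 1.65. Of the 12 mAb sites, 8 overlapped a small intestine site, 7 an rAb peak and 6 both. The mAb sites at 4935 to 4955, 9980 to 9981 and 20645 to 20733 overlapped neither.

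The mAb site at 20645 to 20733 ended 38 bases before the annotated 3′ end of the long isoform, the end that carries its triple helix. It had 55 IP and 3 input reads. In the small intestine the last site ended 1380 bases before the 3′ end, and with rAb the last peak 6627 bases before it. Its bases are shown because no other peak came so near to the 3′ end of either RNA, and capitals mark the site.
Neat1, 20645 to 20733, chr19:5824746-5824834: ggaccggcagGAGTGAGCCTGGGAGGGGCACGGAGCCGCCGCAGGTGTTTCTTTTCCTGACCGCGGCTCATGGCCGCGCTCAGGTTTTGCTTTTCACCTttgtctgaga

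Folds in the small intestine and colon were set against each other over pairs of overlapping peaks, as a description. On Malat1 Pearson's r was 0.71 and Spearman's rho 0.48 over 39 pairs with mAb, and 0.51 and −0.06 over 33 pairs with rAb. On Neat1 they were 0.46 and 0.42 over 23 pairs with mAb, and 0.36 and 0.28 over 18 pairs with rAb. Pairs are not independent, since a colon peak of Malat1 often met several small intestine sites, 37 of which met 14 mAb peaks, and the small intestine folds are all above the cutoff.

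**Figure D5:**
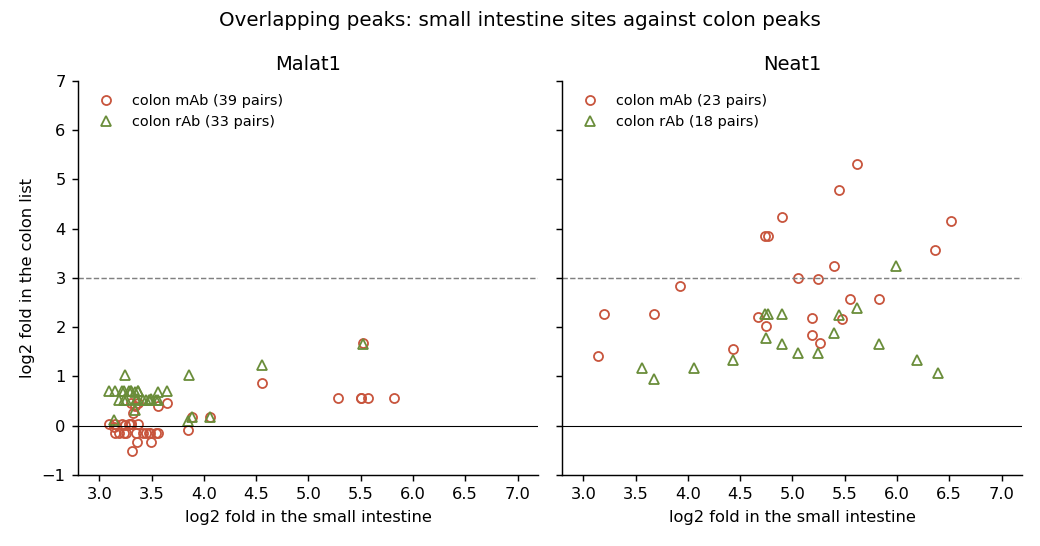
Log2 fold of a small intestine site (horizontal axis) against that of a colon peak overlapping it (vertical axis), with 1 point a pair, for Malat1 and Neat1. Circles are mAb and triangles rAb, and the dashed line is the cutoff of 3. No Malat1 point is above 1.68 in the colon, and the Neat1 mAb points reach 5.32.

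The bases in small intestine sites differed in makeup from the other bases of the same RNA. G made up 33.7% of the 987 bases in Malat1 sites and 24.0% of the others. On Neat1 it made up 34.6% of the 1936 bases in sites and 24.1% of the others. In the short isoform of Neat1 the shares were 37.1% and 28.0%, and beyond it 32.2% and 23.6%. A made up 15.5% of Neat1 sites and 23.4% of its other bases, and on Malat1 26.3% and 29.0%. In the colon peaks of Malat1, G was 34.2% inside and 22.2% outside with mAb, and 32.6% and 23.1% with rAb. On Neat1 it was 29.5% inside and 24.9% outside the mAb sites, where C was 27.9% and 22.0%, and 34.4% and 24.6% with rAb peaks. The share of G was thus higher inside than outside in all 3 lists on both RNAs. The mAb values of Neat1 are of its sites, all beyond the short isoform, and the other colon values of all called peaks. The sizes of these differences are therefore not ranked.

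In their small intestine sites, the 2 RNAs differed in how the G bases were arranged. Over the whole transcripts, the motif GGG stood at 17.8 per kb on Malat1 and 18.1 per kb on Neat1. The motif GGG, searched on the RNA strand only, was present in 28 of 44 joined Neat1 stretches, 63.6%, while 38.8% of all windows of the same widths along Neat1 held it. On Malat1 it was in 5 of 17 stretches, 29.4%, against 30.4% of windows. Windows ran along the whole of each RNA, whereas 43 of the 49 Neat1 sites lie in its first 8500 bases. The first Malat1 sequence above, at 2649 to 2708, holds GGG. The stretch at 701 to 909, where G bases stand alone or in pairs, does not. Repeats (soft-masked bases of the reference) made up 10.3% of Malat1 sites and 11.6% of its other bases, and 7.44% and 15.7% on Neat1. The mean probability of a base being unpaired, predicted by RNAplfold without any protein, was 0.397 in Neat1 sites and 0.454 outside them, and 0.484 and 0.456 on Malat1, a measure added after the values were seen.

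Against other genes, Malat1 and Neat1 were followed in the small intestine by Muc13, a membrane mucin, and 2900026A02Rik, with 20 sites each, Apob, the apolipoprotein of chylomicrons, with 18, Ctnnb1, which encodes β-catenin, with 14, and Mgam, a brush border enzyme, with 13. Slc5a1, a glucose transporter, and Xist had 12 each and Atp1b1 11. Per kb of exon, Malat1 had 7.73 sites, the third highest of 58 genes with at least 5 sites, and Neat1 2.36, the 18th. The median of these genes was 1.78. With sites within 10 bases joined in all 58 genes, a setting added after the values were seen, Malat1 had 2.43 stretches per kb, the 13th, Neat1 2.12, the 17th, and the median was 1.48. In the mAb list Neat1 was followed by Gm23806 and Slc22a22 with 5 each, Krt8 with 4 and n-R5s2 with 3. Per kb of exon Neat1 had 0.578 mAb sites, fewer than each of these, with 45.9, 2.05, 2.04 and 25.2 in the same order. In the rAb list Myh9 led with 16 sites, and Gm23806, n-R5s28 and Slc22a22 had 5 each and 2410002F23Rik 4.

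The mRNAs of proteins from the bodies that these RNAs belong to were also looked up. Of 34 paraspeckle protein genes, 5 held a site in the small intestine, and the 3 highest log2 folds were 6.99 on Hnrnpk, 5.57 on Hnrnpf and 4.42 on Hnrnph3. The core paraspeckle gene Sfpq had 1 site, with a fold of 3.48. In the colon, 24 had a called mAb peak and none a site, and 27 had an rAb peak and 1 a site, Srsf10 with 5.24. Of 30 nuclear speckle genes, 11 held a small intestine site, with the highest folds of 5.65 on Rbm25, 5.61 on Son and 5.53 on Srsf5, a splicing factor with 7 sites. In the colon 28 had mAb peaks and 27 rAb peaks, with no site. Of all 55450 annotated genes, expressed in IECs or not, 5181 had a called mAb peak and 3606 a called rAb peak. Over all genes with a called peak, 2.66% held a site with mAb and 3.02% with rAb. In the small intestine, where genes without a site are not listed, 428 of 21951 annotated protein-coding genes held one, 1.95%, whether or not the gene is expressed in IECs.

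Among 40 other long or nuclear non-coding RNAs, of which 37 had an entry in the annotation, 5 held a small intestine site. Over all annotated genes that are not protein-coding it was 39 of 33499, 0.116%, whether or not expressed in IECs, whereas the 40 were chosen by name. The 5 were Xist, which coats the inactive X chromosome, with 12 sites and a highest log2 fold of 6.16, Dleu2 with 4.97, Gm26917 with 3.26, Snhg12 with 3.25 and Zfas1 with 3.17. Xist has 0.669 sites per kb of exon, fewer than either Malat1 or Neat1. In the colon, 20 of the 40 had called mAb peaks and 15 rAb peaks, and the sites were on Dleu2 with mAb, with a fold of 3.73, and on Zfas1 with rAb, with a fold of 3.98. Called peaks were on 5181 (mAb) and 3606 (rAb) of all 55450 annotated genes, expressed or not. The shares with a site over all genes with a called peak were 2.66% with mAb and 3.02% with rAb.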

How the data were processed

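Cross-linked RNA of DDX5 was measured by eCLIPseq in small intestine and colonic IECs. Per the methods and the submitters' processing notes, reads were trimmed (cutadapt 1.9.1), aligned to mm10 (STAR 2.4.0i, SAMtools 1.4.1) after removal of repeats, and CLIPper peaks were normalised to input. The authors deposited, for each peak, a −log10 p-value and a log2 fold of IP over input. Small intestine values cover both replicates, merged by the Irreproducible Discovery Rate. Another deposited list, which fits no label, was not used.

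Peaks were placed on Malat1 and Neat1 by 1 base of overlap on the strand (GENCODE M21), and sites were defined by both scores of at least 3. On chromosome 19, all peaks lay within the 61431566 bases of GRCm38. The members and gene lists were chosen with earlier results of these data known. Other genes were assigned by coding sequence, exon, then intron. Named besides were the 10 genes with most small intestine sites, the top 5 of each colon list and list members with a site, except 1 gene that is not reported here.

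Colon reads were traced as the smallest whole IP and input reads giving the fold and, within 1%, the −log10 p, after the commonest fold was read as 3 reads over 1. This gave 99.2% of 13011 mAb peaks and 99.6% of 8282 rAb peaks and was tested on simulated data. Peaks with a −log10 p of 0 or at the cap were not traced. Shares have exact Clopper-Pearson 95% intervals (scipy 1.17.1). Unpaired probabilities used RNAplfold of ViennaRNA 2.7.2 (window 150, span 100). No test was made, since each tissue and antibody had 1 list. Alternatives were stricter and looser cutoffs, joined sites, midpoints and repeats.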

Additional observations from a re-analysis of the deposited data

How the results depend on the processing

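Counts of sites, shares, pooled folds and ranks were recomputed under 72 alternatives, of which 53 stayed within 1.5 times a count, fold or rank or within a share's 95% interval. With a log2 fold of at least 4, Malat1 kept 23 small intestine sites, 3.29 per kb over 4.91% of its length, and Neat1 sites covered 8.37%. Joining sites within 10 bases left 17 Malat1 stretches, 2.43 per kb. With a log2 fold of at least 1 and −log10 p still at least 3, colon counts were 1 (mAb) and 3 (rAb) on Malat1, and 25 and 3 on Neat1. Without soft-masked sites and bases, 10.1% of Neat1 was in sites. Of Malat1 sites with a fold of at least 4, 34.8% overlapped an mAb peak and 13.0% an rAb peak. Most of these sites were pieces of the stretch at 701 to 909. Counting only colon sites, the overlapping shares were 0% with both antibodies on Malat1, and 18.4% (mAb) and 0% (rAb) on Neat1. The cause was not tested.

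No paired analysis was possible because the replicate numbers belong to small intestine libraries merged in 1 list, and without values per replicate none was left out. Library depths are unknown, and rAb peaks of Neat1 rest on at most 20 IP reads.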

Other observations

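By number of small intestine sites per kb of exon, the genes nearest to Malat1 (7.73) were Reg3b, an antimicrobial lectin, with 7.88, Fabp2, a fatty acid-binding protein of enterocytes, with 8.29, Muc13 with 6.58, Krt20 with 5.19 and Krt8 with 4.60. The genes nearest to Neat1 (2.36) were Dgat1, an enzyme of triglyceride synthesis, with 2.29, Actb with 2.24, Pigr, the receptor that carries immunoglobulins across the epithelium, with 2.24, Clec2h with 2.58 and Selenop with 2.11. These genes had 6 to 20 sites each, against 54 and 49 on the 2 lncRNAs.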
